A study of Mus musculus with 8 samples.

Results

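Matricellular proteins are secreted into the extracellular matrix, where they act on cells and growth factors more than they build structure. In the adult heart many of them are known to be low at rest and to be induced by injury, pressure load and fibrosis. The genes described here were chosen by name: the thrombospondin genes Thbs1, Thbs2, Thbs3 and Thbs4, tenascin C (Tnc), periostin (Postn), osteopontin (Spp1), Sparc, and the CCN family genes Ccn1 and Ccn2. Of these 10 genes, 9 were found among the 19933 genes that had a transcript cluster of their own (the array's gene-level probe set), each with 1 cluster, and Spp1 is not analysed here. All 9 were bright enough to pass the filter on dim genes, which left 14950 genes in the test.

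The hearts came from male C57BL/6 mice, 6 weeks of age and fed normal chow. The KO group was 4 mice deficient in HDAC3, a histone deacetylase that works in nuclear receptor corepressor complexes, and the WT group was 4 wild type mice. The study calls the knockout MCH3-KO. The labels name no Cre and no cell type for the deletion, and they do not say whether the controls carried any allele or were littermates. Each array is 1 heart, labelled as a biological replicate.

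Array medians lay between 54.1 and 56.5 intensity units. The targeted gene Hdac3 was 8.57 ± 0.046 in KO and 10.10 ± 0.079 in WT hearts (mean log2 intensity ± SD, n = 4 each), without overlap, so every array matched its label. Of 9 cardiomyocyte markers tested, 0 were higher and 2 were lower in KO (Ryr2, -0.53, and Myl2, -0.20). The summed intensity of the 9 was lower in KO, at 65246 to 66308, against 68257 to 68817 in WT. At an unadjusted p under 0.05 (limma), 3 were lower. Besides Ryr2 and Myl2 this was Tnni3 (-0.098), which passed in 1 of 17 alternative settings. Myl2 no longer passed without WT replicate 1, KO replicate 1 or KO replicate 2, or with the replicate number as a block (adjusted p = 0.0572).

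Matricellular genes did not move as a block in the KO hearts. Thbs4, Ccn2 and Tnc were at least 2-fold higher, Thbs1 and Postn were more moderately higher, Thbs2 and Ccn1 were lower, and Thbs3 and Sparc did not pass the test. In all, 7 of the 9 passed at an adjusted p under 0.05 (limma, adjusted over all genes tested), where 24.6% of all genes did. The higher members were 5, against 10.8% of all genes, and the lower members were 2, against 13.9%. The 3 members at least 2-fold higher stand beside 0.836% of all genes that passed at that size. For 7 of the 9, all KO hearts lay on one side of all WT hearts, which held for 28.6% of all genes. The median difference over the 9 was 0.64 on the log2 scale, beside -0.0062 over all genes tested. The members were chosen with earlier results of these data known, so these shares are a description and no test of the set. All differences below are KO minus WT in log2 intensity with 4 hearts per group. Levels of different genes were not compared, since probes differ in brightness.

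**Figure D1:**
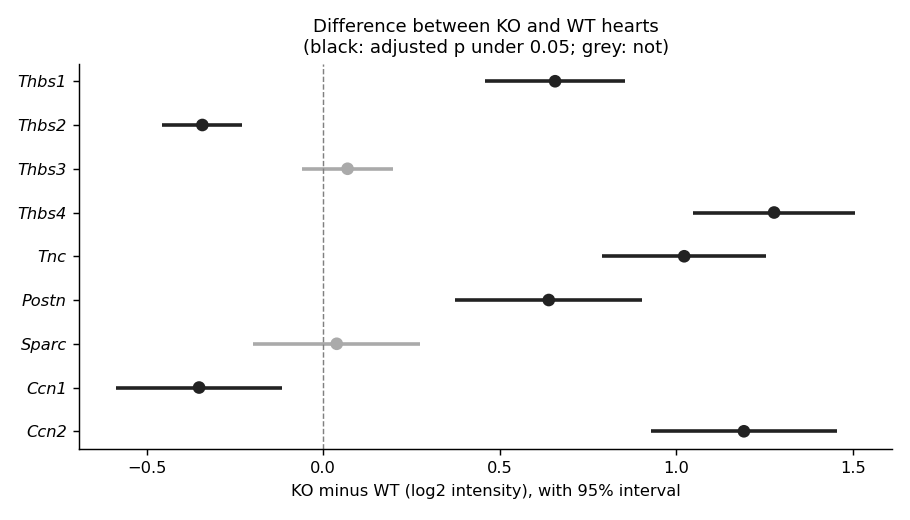
KO minus WT difference in log2 intensity for the 9 matricellular genes, with points for the limma estimates and lines for their 95% intervals (4 hearts per group; black, adjusted p under 0.05; grey, not). Thbs4 (1.28), Ccn2 (1.19) and Tnc (1.02) lie farthest to the right, while Thbs2 (-0.34) and Ccn1 (-0.35) lie left of 0.

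Letters before the gene starts were read from RefSeq (GRCm38.p6) for 8 of the 10 genes, in 11 windows of 250 bases, since some genes have several starts. Thbs1 and Ccn2 had no window. The letters CATTCC, the core read by TEAD transcription factors, the DNA-binding partners of YAP, are shown in capitals. Thbs4, Thbs2 and Ccn1 are shown because they moved in different directions within their families. The windows are Thbs4 at chr13:92794819-92795068, Thbs2 at chr17:14694263-14694512 and Ccn1 at chr3:145649986-145650235, all on the minus strand and written 5′ to 3′ toward the start.
Thbs4: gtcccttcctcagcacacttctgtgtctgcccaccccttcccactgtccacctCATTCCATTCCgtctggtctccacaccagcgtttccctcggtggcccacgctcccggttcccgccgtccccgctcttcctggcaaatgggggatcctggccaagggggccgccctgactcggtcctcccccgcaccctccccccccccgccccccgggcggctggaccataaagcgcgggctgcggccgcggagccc
Thbs2: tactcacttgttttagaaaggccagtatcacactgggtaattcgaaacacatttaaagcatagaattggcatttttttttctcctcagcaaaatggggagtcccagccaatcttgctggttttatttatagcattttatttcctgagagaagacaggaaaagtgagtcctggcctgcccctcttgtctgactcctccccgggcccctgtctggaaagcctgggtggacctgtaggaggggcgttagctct
Ccn1: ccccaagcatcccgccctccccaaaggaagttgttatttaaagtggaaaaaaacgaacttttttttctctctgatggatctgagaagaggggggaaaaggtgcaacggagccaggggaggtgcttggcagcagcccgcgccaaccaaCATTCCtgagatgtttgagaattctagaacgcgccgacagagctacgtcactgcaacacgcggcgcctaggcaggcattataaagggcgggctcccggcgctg

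CATTCC was searched on both strands. It occurred 2 times in the window of Thbs4, at 197 to 192 and 192 to 187 bases before the start, where both matches share a base. In the window of Ccn1 it occurred 1 time, at 103 to 98 bases before the start. The windows of Thbs2, Thbs3, Tnc, Postn, Spp1 and Sparc did not hold it, and 12.6% of 32851 windows of the same length did. Thus a gene that was higher and a gene that was lower in KO hearts both held it. TGANTCA (the AP-1 letters) and the CArG box, which is read by serum response factor, were in 0 of the 11 windows, and in 6.75% and 1.47% of all windows. CAGACA, which contains the letters read by SMAD proteins, occurred 2 times before Thbs2, 1 time before Thbs4, 1 time before Sparc, 1 time in 1 of 2 Spp1 windows and 1 time in 1 of 2 Tnc windows, and in 17.1% of all windows. AGGTCA, the core letters read by nuclear receptors, was found in 1 of 2 Postn windows and in 14.0% of all windows. TATAAA was also searched and was found in 12.4% of all windows. It occurred before Thbs2 and Ccn1, in both Tnc windows, which overlap, and in 1 of 2 windows of Postn and Spp1 each. The matches of different motifs did not overlap in these windows. A match is a description of letters and not a binding site, and binding was not measured here.

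Thrombospondins are calcium-binding glycoproteins that fall into a trimeric subgroup (Thbs1 and Thbs2), which also carries the repeats that restrain vessel growth, and a pentameric subgroup (Thbs3 and Thbs4). The family split in the KO hearts along neither subgroup: a member of each was higher, and their partners were lower or did not pass. Thbs4, which is known in the heart for a protective role under pressure load and for its binding to the stress sensor ATF6 inside the endoplasmic reticulum, had a difference close to that of Ccn2, and their order turned with the pseudocount of 16 (1.16 for Thbs4 and 1.18 for Ccn2). Its log2 intensities were 8.09, 8.26, 7.99 and 7.87 in KO hearts, against 6.54, 6.72, 6.87 and 6.97 in WT hearts. Every KO heart lay above every WT heart, with a gap of 0.91 between the groups. Thbs4 rose by 1.28 (SE 0.10, 95% interval 1.05 to 1.51, adjusted p = 1.78e-05), or 2.42-fold, and ranked 64 of 14950 genes by signed difference.

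Thbs1, an activator of latent TGF-beta that is also stored in platelets, had values of 8.18, 8.23, 8.16 and 7.94 in KO hearts, against 7.39, 7.48, 7.32 and 7.70 in WT hearts. The groups did not overlap, and the nearest hearts, KO replicate 4 and WT replicate 4, were 0.25 apart. The gene rose by 0.66 (SE 0.089, adjusted p = 0.000459), or 1.58-fold. Thbs2, which is known in mice to support matrix integrity of the loaded and ageing heart, went the other way. Its values were 7.47, 7.49, 7.39 and 7.43 in KO hearts, against 7.80, 7.72, 7.76 and 7.87 in WT hearts. These were tight groups, with an SD of 0.047 in KO and 0.060 in WT, so that a fall by 0.34 (SE 0.051, adjusted p = 0.000796), to 78.9% of the WT level, left no overlap. Thbs3, a pentameric member, had 5.69, 5.69, 5.61 and 5.57 in KO hearts, against 5.68, 5.48, 5.56 and 5.56 in WT hearts. The groups overlapped, and the difference of 0.069 (95% interval -0.060 to 0.20, adjusted p = 0.449) did not pass. The upper end of that interval is a 1.15-fold increase.

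**Figure D2:**
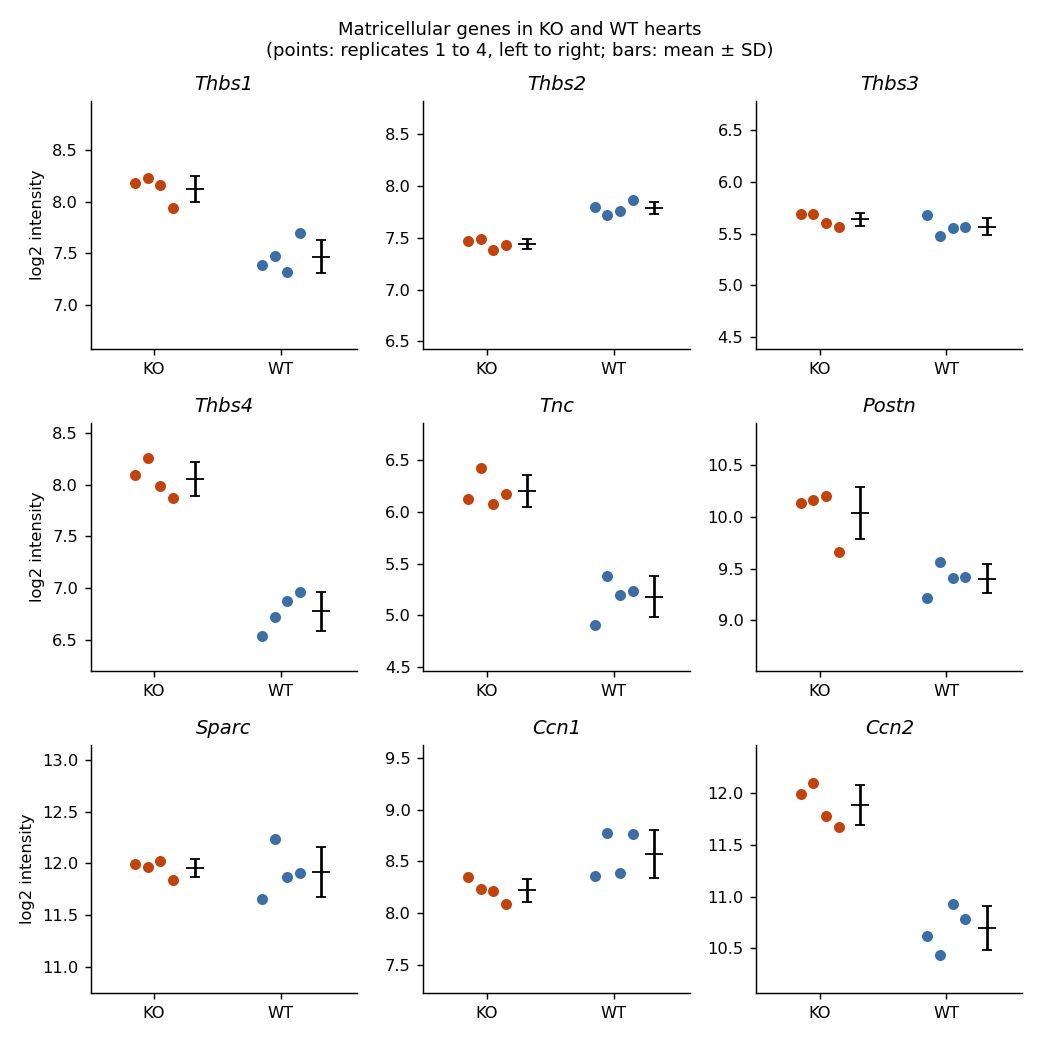
Log2 intensity of each matricellular gene in KO (left, orange) and WT (right, blue) hearts, with 1 point per heart in replicate order and the mean ± SD beside the points. Every panel spans the same log2 range. KO points lie above all WT points for Thbs1, Thbs4, Tnc, Postn and Ccn2 and below them for Thbs2 and Ccn1. The groups overlap for Thbs3 and Sparc.

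Whether family members differed from each other in their response was tested on the ratio of both genes within each array, for all 6 thrombospondin pairs and for Ccn2 with Ccn1. The difference between the KO effects on Thbs4 and Thbs2 was 1.62. The ratio of Thbs4 to Thbs2, relative to its WT mean, was 1.46 to 1.78 in KO hearts and -0.25 to 0.12 in WT hearts. Thbs1 and Thbs2, the trimeric members, differed by 1.00, and Thbs4 and Thbs3, the pentameric members, by 1.21. Thbs4 also exceeded Thbs1, by 0.62, and Thbs1 exceeded Thbs3 by 0.59. The smallest gap was that between Thbs3 and Thbs2, at 0.41. In each of the 7 pairs the ratios of KO and WT hearts did not overlap, and each gave an exact two-sided permutation p of 0.0286, which is the smallest that 4 against 4 hearts can give (adjusted over the 7 pairs, also 0.0286). The pairs were computed with the direction of some members already known. For Thbs4 with Thbs2, Thbs1 with Thbs2 and Ccn2 with Ccn1, the first gene lay wholly above WT and the second wholly below. Their ratios then had to separate, so for these pairs the p-value adds nothing to the results of the single genes.

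**Figure D3:**
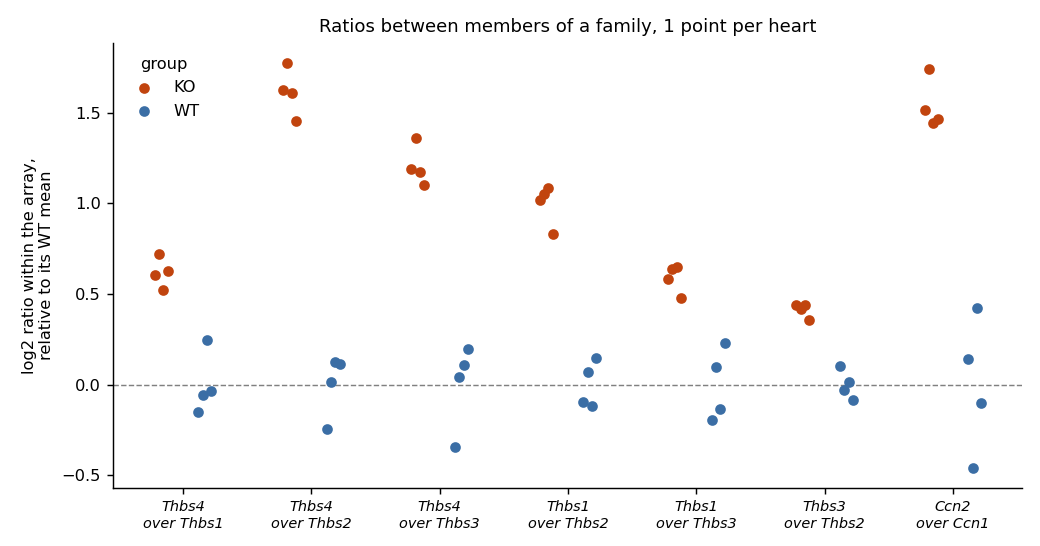
Log2 ratio of family members within each array, relative to the WT mean of that ratio, with 1 point per heart (orange, KO, left; blue, WT, right). KO hearts lie above WT hearts in all 7 pairs, from 0.36 to 0.44 for Thbs3 over Thbs2 up to 1.46 to 1.78 for Thbs4 over Thbs2.

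Tenascin C and periostin are produced chiefly by fibroblasts of remodelling tissue. Tnc, a hexameric glycoprotein that loosens cell adhesion, had 6.13, 6.42, 6.08 and 6.18 in KO hearts, against 4.90, 5.38, 5.20 and 5.23 in WT hearts. The lowest KO heart stood 0.70 above the highest WT heart. Tnc rose by 1.02 (SE 0.10, 95% interval 0.79 to 1.25, adjusted p = 7.7e-05), or 2.03-fold, and by 0.78 with a pseudocount of 16, as its WT intensities were only 29.9 to 41.6. Postn, which supports collagen assembly and marks activated cardiac fibroblasts, had 10.13, 10.16, 10.21 and 9.67 in KO hearts, against 9.21, 9.56, 9.41 and 9.42 in WT hearts. Here 3 KO hearts sat together and KO replicate 4 lay only 0.10 above the highest WT heart. Postn rose by 0.64 (SE 0.12, adjusted p = 0.00305), or 1.56-fold, and by 0.76 without KO replicate 4 (adjusted p = 0.000236).

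Sparc, a collagen-binding glycoprotein that helps newly made collagen mature, had 11.99, 11.97, 12.02 and 11.83 in KO hearts, against 11.66, 12.24, 11.87 and 11.90 in WT hearts. All KO values lay inside the WT range, which WT replicates 1 and 2 set at its ends. The difference was 0.038 (95% interval -0.20 to 0.27, adjusted p = 0.844), and it took the other sign, -0.049, without WT replicate 1. Fold changes from 0.87 to 1.21 are within that interval, so a modest change in either direction was not detectable with these arrays.

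The CCN genes encode secreted proteins that bind integrins and heparan sulfate and are textbook targets of YAP with TEAD. Ccn2, known as connective tissue growth factor and made in the heart by cardiomyocytes as well as fibroblasts, had 11.99, 12.10, 11.78 and 11.67 in KO hearts, against 10.62, 10.44, 10.93 and 10.78 in WT hearts. The groups were 0.74 apart at their nearest hearts. Ccn2 rose by 1.19 (SE 0.12, 95% interval 0.93 to 1.45, adjusted p = 6.18e-05), or 2.28-fold. Ccn1, its close relative that is known to drive fibroblasts into senescence in healing tissue, did not rise with it. Its values were 8.35, 8.23, 8.21 and 8.08 in KO hearts, against 8.36, 8.77, 8.39 and 8.76 in WT hearts. The groups came within 0.015 of each other (KO replicate 1 and WT replicate 1), and WT replicates 2 and 4 stood above the rest.

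Ccn1 fell by 0.35 (SE 0.11, adjusted p = 0.0338), to 78.4% of the WT level, and this call was less secure than the others. It was lost without WT replicate 2 (adjusted p = 0.0793), WT replicate 4 (0.0846), KO replicate 2 (0.0686), KO replicate 3 (0.0714) or KO replicate 4 (0.0867). The difference between both genes did not rest on it: the KO effect on Ccn2 exceeded that on Ccn1 by 1.54, with ratios of 1.45 to 1.74 in KO hearts and -0.46 to 0.42 in WT hearts relative to the WT mean. That is 1 of the 7 pairs above. Its exact two-sided permutation p of 0.0286 was fixed by the separation of both genes in opposite directions.

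The members that rose varied between hearts in both groups. Their SDs in KO and WT hearts were 0.13 and 0.16 for Thbs1, 0.16 and 0.19 for Thbs4 and 0.15 and 0.20 for Tnc. They were 0.19 and 0.21 for Ccn2 and 0.25 and 0.14 for Postn. KO replicate 4 was the lowest KO heart for 4 of the 5 higher members (Thbs1, Thbs4, Postn and Ccn2) and for 7 of all 9 members, and KO replicate 2 was the highest for 4 of the 5. Among WT hearts, replicate 1 was the lowest for 3 of the 5 and for 5 of all 9. Averaged over the 5, the KO hearts stood at 1.00, 1.13, 0.94 and 0.76 above the WT mean, against -0.17, 0.012, 0.044 and 0.12 in WT hearts. Without KO replicate 4, Thbs4 differed by 1.34, Ccn2 by 1.26, Tnc by 1.03 and Thbs1 by 0.72, and all 4 passed. Correlations between members were not computed, since the 8 hearts form 2 separate groups of 4.

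Markers of some other cells also differed between KO and WT hearts, most clearly those of macrophages. Of 12 macrophage markers 12 were higher in KO, with a median of 1.32 and a summed intensity of 7594 to 9781 in KO and 3375 to 3867 in WT. They included Lyz2 (1.41), Csf1r (1.31) and Cd68 (1.46). KO replicate 4 was also the lowest KO heart on these markers, at a mean of 1.02 above WT, against 1.23 to 1.27 in the other KO hearts. Among 10 fibroblast markers 3 were higher and 0 lower, with a median of 0.20 and a summed intensity of 4097 to 4618 in KO and 3389 to 4096 in WT. These were Lum (0.38), Mfap5 (0.55) and the collagen gene Col1a2 (0.23, adjusted p = 0.0472). Col1a2 lost its call without KO replicates 1, 2 or 3 or WT replicates 1, 3 or 4. At an unadjusted p under 0.05 (limma), 6 of the 10 were higher and 0 lower. Besides Lum, Mfap5 and Col1a2 these were Dpt (0.17), Col1a1 (0.23) and Col3a1 (0.24). The defining fibroblast genes Pdgfra (-0.021) and Tcf21 (-0.17), and Ddr2 (-0.069) and Fap (-0.062), did not pass at either level. The part of these cells in the matricellular differences was not tested, and in whole hearts more cells of a type and more RNA per cell cannot be told apart.

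Of 8 smooth muscle and pericyte markers and 9 endothelial markers 0 passed (limma), with 1 (Acta2, a marker of smooth muscle and myofibroblasts) and 0 at an unadjusted p under 0.05, and their summed intensities overlapped between the groups. Acta2 differed by 0.49 (adjusted p = 0.0526) and passed in 6 of 17 alternatives: quantile normalisation, the filter at the median level, array weights, the pseudocount, and the fits without WT replicate 2 (0.64) or WT replicate 4 (0.57). WT replicate 2 stood apart on the smooth muscle list, at 0.32 above the WT mean, where KO hearts lay between -0.021 and 0.0032, and it was also the highest WT heart for Tnc, Postn, Sparc and Ccn1. Without it, Tnc differed by 1.09 and Postn by 0.69. The endothelial marker Emcn (0.11) passed as higher in 1 of 17 alternatives, without WT replicate 2 (0.17). Cnn1 of the smooth muscle list (-0.38) passed as lower in 1 of 17, without WT replicate 3 (-0.56). Platelets, which carry Thbs1, have the markers Pf4, Itga2b, Gp9 and Ppbp. Of these Pf4, a chemokine gene that macrophages also express, was higher (1.35), while Itga2b (-0.13) and Gp9 (-0.068) did not pass. Of tendon and valve markers, 3 were tested and 0 passed (limma; at an unadjusted p under 0.05, 1, Prelp, -0.27, which passed in 7 of 17 alternatives), and Tnmd and Hapln1 were under the dim filter. Neutrophil and lymphocyte markers gave 0 calls among 2 and 3 tested (limma; also 0 at an unadjusted p under 0.05).

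**Figure D4:**
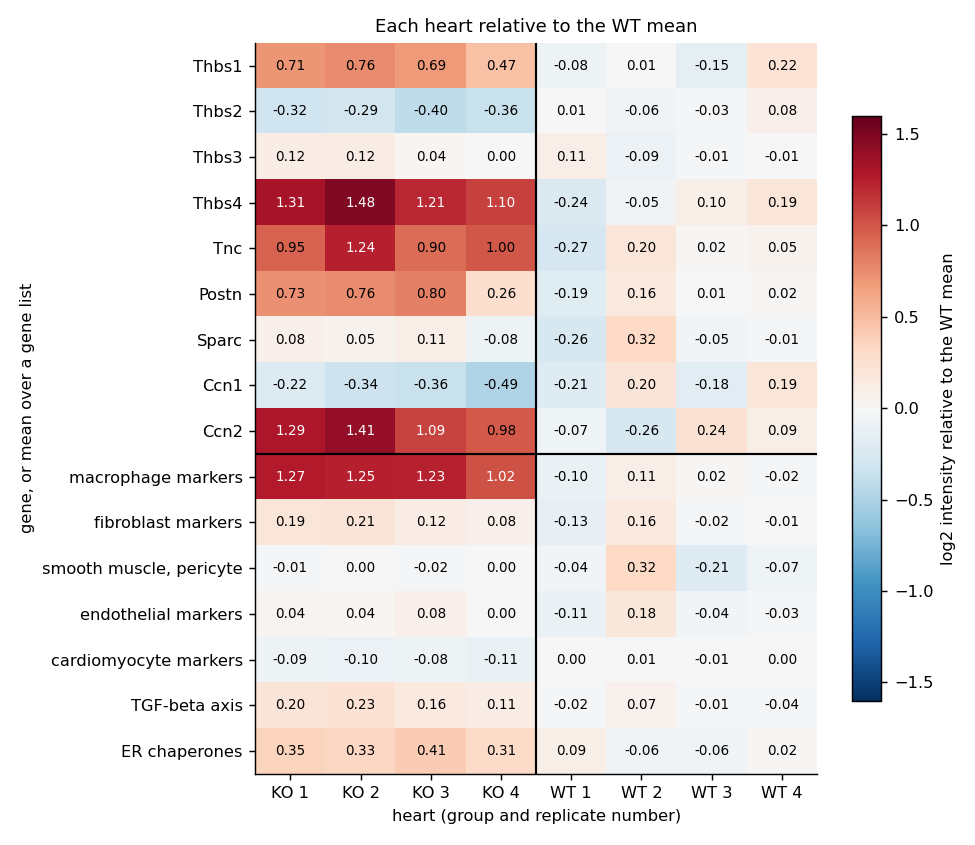
Log2 intensity of each heart relative to the WT mean, for the 9 matricellular genes (above the line) and for means over marker and pathway lists (below it), with KO hearts left of WT hearts. KO replicate 4 has the lowest KO value for Postn (0.26) and for the macrophage markers (1.02).

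The genes whose pattern over the 8 hearts lay nearest to a member were found by the root mean square difference of log2 values, each gene relative to its own WT mean. For Thbs4 these were the inhibitory Fc receptor gene Fcgr2b (0.094), the lectin gene Clec4a1 (0.11) and F630028O10Rik (0.11). For Tnc they were the protease inhibitor gene Timp1 (0.087), Lcp2 (0.10) and Myo1f (0.11). Ccn2 lay nearest to Lyz1 (0.12), Thbs4 (0.13) and Ncf1 (0.13), so that 1 matricellular gene was among the neighbours of another. For Postn the nearest were Frmd4b (0.045), Naip2 (0.055) and Slfn8 (0.060), and for Thbs1 they were Arhgap11a (0.080), Ugp2 (0.085) and Pde3b (0.088). The lower members had other neighbours: Habp4 (0.026), Tctn3 (0.031) and Efna5 (0.031) for Thbs2, and Afap1 (0.079), 2410004B18Rik (0.080) and Prelp (0.083) for Ccn1. Because each gene is taken relative to its own WT mean, the measure mostly picks genes with a similar KO minus WT difference. Thbs4 (1.28) and Ccn2 (1.19) are similar in size. Higher and lower members differ in their neighbours by construction. The measure is a description over hearts that differ by group.

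Other matricellular and matrix-associated genes mostly did not pass the test. Of 27 tested, 6 were higher and 3 lower, beside 10.8% and 13.9% of all genes, with a median of 0.11. Tgfbi, a secreted integrin ligand related to periostin, was 9.51 ± 0.11 in KO and 8.59 ± 0.13 in WT hearts (SD, n = 4) and rose by 0.92 (adjusted p = 1.91e-05). Those that fell were the small proteoglycan gene Ogn (-0.52), fibulin 1 (Fbln1, -0.49) and Smoc2 (-0.48), a calcium-binding relative of Sparc. The remaining higher genes, named after their values were seen, were Lgals3 (1.33), a galectin gene abundant in macrophages, versican (Vcan, 0.47), Fstl1 (0.40), Ccn5 (0.25) and Mgp (0.21). Among the CCN genes, Ccn3, Ccn4 and Ccn6 did not pass, at -0.21, -0.048 and 0.058. The count of higher genes ranged from 4 to 9 over the alternatives.

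Receptors of these proteins changed in both directions: of 25 tested, 8 were higher and 4 lower, with a median of 0.034. The shares over all genes were 10.8% higher and 13.9% lower. Among integrin subunit genes, Itgb5 rose by 0.61 (adjusted p = 1.39e-05) and so did, named after its values were seen, its partner Itgav (0.46). Itga4, an integrin gene of leukocytes, rose by 0.92 and Stab1, a scavenger receptor gene of macrophages and endothelium that takes up Sparc, by 1.10, in hearts whose macrophage markers had a median difference of 1.32. Cacna2d1, the calcium channel subunit that serves as a thrombospondin receptor in neurons, fell by 0.80 (SE 0.049, adjusted p = 3.61e-06). Also lower, and named after their values were seen, were Itga9 (-0.56), the receptor subunit for tenascin C and osteopontin, Itga3 (-0.56) and Itgb6 (-0.88), another partner of Itgav. The thrombospondin receptors Cd36 (-0.027) and Cd47 (0.074) did not pass.

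The TGF-beta pathway, which both acts on and is activated by matricellular proteins, had 5 higher and 1 lower of 14 genes tested, beside 10.8% and 13.9% of all genes, with a median of 0.18. The ligand genes Tgfb3 (0.57) and Tgfb1 (0.39) and the transcriptional regulator gene Skil (0.43) rose, while the latency protein gene Ltbp1 fell by 0.52. In the YAP and TEAD list 2 of 14 were higher and 1 lower, against the same shares, with a median of 0.028. Yap1 (-0.033), Wwtr1 (-0.038) and Tead1 (0.045), named for their place in the pathway, did not pass, Tead3 fell by 0.35 and Axl rose by 0.32. Ankrd1, a stretch-responsive target, rose by 0.21 (adjusted p = 0.0379) but lost its call in 9 of 17 alternatives, among them the fits without WT replicates 1, 2 or 3 or KO replicates 1, 2 or 3. Of 10 genes around serum response factor 1 was higher and 3 lower, beside 10.8% and 13.9% of all genes. Myocd, its cardiac coactivator, fell by 1.18 and Acta1 rose by 1.27, while Srf (-0.21) and Fhl2 (-0.24) fell.

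Genes of endoplasmic reticulum chaperones and ATF6, the stress sensor that Thbs4 binds, were mostly higher: 12 of 15 rose and 0 fell (limma), with a median of 0.33, where 10.8% of all genes were higher. Sdf2l1, a chaperone cofactor, was 8.16 ± 0.093 in KO and 7.09 ± 0.24 in WT hearts (SD, n = 4) and rose by 1.07 (SE 0.11, adjusted p = 6.14e-05). Pdia6, a disulfide isomerase, rose by 0.55, the main chaperone gene Hspa5 (BiP) by 0.43 and Dnajb9 by 0.29. Atf6 itself differed by -0.15 (adjusted p = 0.0596; the 1 lower gene at an unadjusted p under 0.05), and Canx and Hyou1 did not pass either (0.058 and 0.22); these 3 were named after their values were seen. The mean over the list was 0.31 to 0.41 above WT in KO hearts and -0.060 to 0.094 in WT hearts. The count of higher genes was 10 when any 1 KO heart was left out. The macrophage markers above, with a median difference of 1.32, were also higher in KO hearts. Neither their part in this list nor that of Thbs4 was tested.

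**Figure D5:**
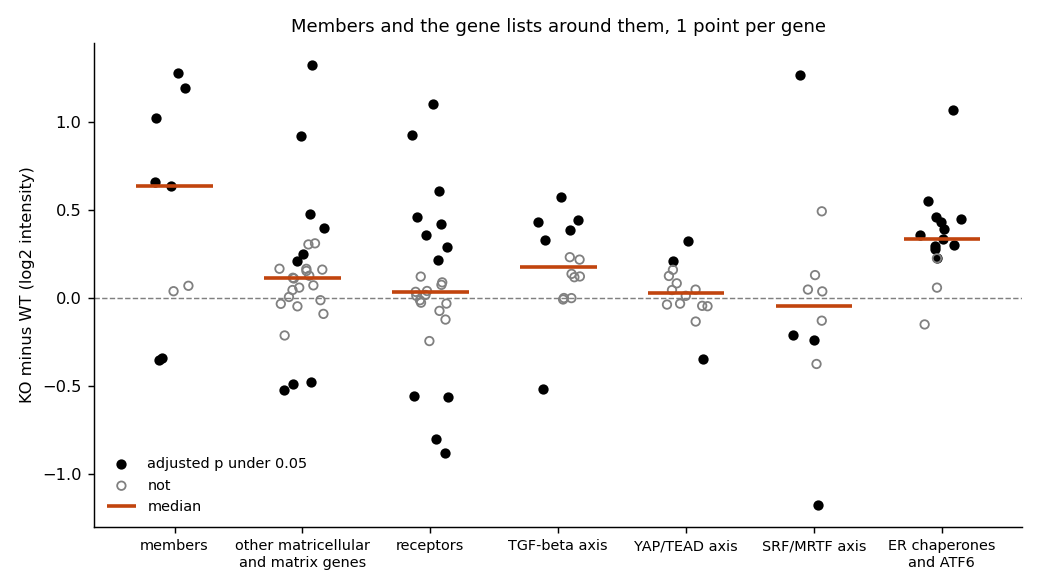
KO minus WT difference in log2 intensity for each gene of the matricellular set and of 6 surrounding lists, with 1 point per gene (black, adjusted p under 0.05; open, not) and the median of each list as a bar. The endoplasmic reticulum list lies almost wholly above 0 (median 0.33), while the YAP and TEAD list lies around 0 (median 0.028).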

How the data were processed

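Values were taken from the deposited table, in which the authors give 1 intensity on a linear scale per transcript cluster and array (27541 clusters, 8 arrays of the Affymetrix Mouse Gene 1.0 ST type). Partek and RMA (robust multi-array averaging) were used, per the submitters' processing notes. No source used here gives their versions. Scan batches were not analysed here. The number of arrays limits the precision.

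Clusters were named through the platform annotation, kept where they had 1 symbol (21631), and reduced to the brightest cluster per gene. A filter then removed the dimmest genes, those below log2 4.50 on average, which is the 25th percentile. Differences between KO and WT in log2 intensity were tested two-sided by limma 3.58.1 (R 4.3.3), with Benjamini-Hochberg adjustment over 14950 genes at 0.05. Ratios within arrays were tested by exact permutation (scipy 1.17.1). Genes were named by a written rule, which takes all members, Hdac3, the smallest adjusted p-values of each list and the nearest patterns. Most others are marked. Outside the rule and not marked are the fibroblast markers other than Lum, Mfap5 and Col1a2, and Cd36, Cd47, Ccn3, Ccn4, Ccn6, Ppbp, Tnmd and Hapln1. The members and lists were chosen with earlier results of these data known. The fit was tested on simulated data. Promoter letters came from RefSeq (GRCm38.p6), whose match to the array's build was not checked. Alternatives were other scalings, dim filters, variance models, array weights, cluster handling, a pseudocount, a replicate block and fits that omitted 1 array at a time. Same-numbered hearts did not deviate together (correlations of -0.04 to 0.08 over genes), so the numbers were not taken as pairs.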

Additional observations from a re-analysis of the deposited data

Results flagged for a closer look

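KO replicate 4 lay far from the other KO hearts in 3 of the 27 sets of 4 KO values examined (each member, Hdac3 and each list mean), where chance flags about 1 in 20 sets. The 27 WT sets gave 0. The sets come from the same hearts and some share genes. Its Postn level was 9.67, against 10.13 to 10.21 in the other KO hearts, a gap of 0.862 of the whole KO range. Its macrophage marker mean was 1.02 above WT, against 1.23 to 1.27, a gap of 0.841 of the range. Its Hdac3 level was 8.50, against 8.59 in each of the others, a gap of 0.916 of a range that is itself narrow. Postn without this heart is given with the gene.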

How the results depend on the processing

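Over 17 alternatives the counts of genes that passed ranged from 2869 to 4529, beside 3683, and 6 or 7 of the 9 members passed. Thbs1, Thbs2, Thbs4, Postn and Ccn2 kept their direction and their call under all 17, and Tnc under the 16 that tested it, since a filter at the median level left out Tnc and Thbs3. Thbs4 ranged from 1.16 to 1.34 and Ccn2 from 1.11 to 1.27. Ccn1 kept its direction (-0.42 to -0.28) but not its call: with the replicate block it was -0.35 (adjusted p = 0.0618), and when single hearts were left out it ranged from -0.42 to -0.28 (adjusted p 0.0187 to 0.0867). The cause was not tested. The replicate block changed no other member's call; of other named genes, Ankrd1 (adjusted p = 0.0710) and Myl2 (0.0572) lost theirs under it. Sparc changed sign when single hearts were left out, with a range of -0.049 to 0.15. Of genes named from lists, Cd79b (-0.040) was 0.019 with array weights and ranged from -0.11 to 0.11 when single hearts were left out, and Chad (-0.098) likewise ranged from -0.19 to 0.086. The 7 family ratios kept their direction, and their calls where 4 hearts per group were tested, while fits with fewer hearts cannot reach 0.05 and were read as values. Of the 4 alternatives that tested the ratios, median centring cancels within an array, and the mean of clusters cannot change genes with 1 cluster. List counts were recomputed after the data were seen. Among serum response factor genes 1 to 3 were higher, and in the YAP and TEAD list 1 or 2, while 10 to 13 chaperone genes were higher and 0 or 1 (Atf6) lower. Dim genes such as Tnc are the least certain in size, since 1.02 became 0.78 with the pseudocount.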
